A study of Mus musculus with 24 samples.

Results

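Expression in inguinal fat of control mice at circadian time 18 h (CT18), in the subjective night, was set against CT6, in the subjective day. The comparison rests on 6 of the 24 arrays of the series, chosen by their titles: 3 control arrays at CT18 and 3 at CT6. Circadian time counts hours from the start of the subjective day at CT0. Each array holds the RNA of 1 biological replicate, and the other 18 arrays are used for the shared estimate of the spread and for the comparisons with knockout fat and with other times.

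The knockout mice carry aP2-Cre+/- Bmal1fx/fx, so that the aP2 (Fabp4) promoter drives Cre recombinase in adipocytes, with 3 arrays at each of CT0, CT6, CT12 and CT18. In control mice, Bmal1fx/fx, both Bmal1 alleles are floxed and there is no Cre; they have 3 arrays at each of the same times. All animals had been crossed to C57BL/6J for at least 6 generations and ate regular chow. They were moved to constant darkness 36 h before collection began, so the hours in darkness may differ between times. Every group was fasted for 24 h before death, so that each array shows fasted fat. The fast thus began at a different circadian time for CT18 than for CT6. Effects of either cannot be told apart from those of circadian time. Age and sex are not stated in the labels used here, nor whether mice were pooled.

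The mammalian clock is a loop of transcription factors. BMAL1 (gene symbol Arntl) pairs with CLOCK and switches on genes through E-boxes, among them the Period and Cryptochrome genes, whose proteins then block the pair. A second arm runs through the nuclear receptors REV-ERBα and REV-ERBβ (Nr1d1 and Nr1d2), which repress Arntl and Nfil3, and another through DBP, TEF and HLF, which activate D-box genes, and NFIL3, which represses them. In fat this clock runs in the adipocytes themselves. Times 12 h apart catch a gene near opposite ends of its daily range only where those ends fall near them.

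Values are log2 expression from RMA (robust multi-array average), differences are CT18 minus CT6, and the error of a difference is the standard error (SE) of a limma fit over all 24 arrays. A gene passed where its Benjamini-Hochberg adjusted p, over 19938 genes, was under 0.05. The medians of the 6 arrays lay between 6.499 and 6.549, and each array's lowest correlation within its own group was 0.9881 to 0.9946. Adipocyte markers fitted fat as the tissue, but they do not tell one fat depot from another. The means of the 14 measured markers lay between 7.64 and 12.52, and none of the 14 passed. Adipoq read 12.08, 11.91 and 12.06 at CT18 against 12.00, 11.98 and 11.97 at CT6. The probe set of Arntl, the targeted gene, averaged 7.26 ± 0.18 in knockout and 7.32 ± 0.26 in control fat at CT18 (SD, n = 3 each), and 6.95 ± 0.11 against 6.73 ± 0.16 at CT6; the sources used here do not say whether it covers the deleted exon, so it does not check the labels. For Ces1d, a carboxylesterase whose 3 knockout arrays lay below the 3 control arrays at CT0 and at CT6, replicate 3 at CT18 lay toward the other genotype in both: 10.33, 10.12 and 10.75 in knockout fat, against 10.90, 10.80 and 10.51 in control fat. Replicate 1 at CT12 did so by more, with 11.06, 9.99 and 10.26 in knockout fat against 10.32, 10.93 and 11.09 in control fat. Of these 4 arrays, control replicate 3 at CT18 enters CT18 minus CT6, so results are also given without it where it changes a call or moves a value by over 1.5 times. Without all 4, 15 genes passed for CT18 minus CT6, 7 of them among the 12 described below. The choice of these arrays rests on Ces1d alone. Nr1d1, with all knockout arrays below all control arrays at CT6 and CT18, showed no such lean at CT18. It had 7.10, 7.11 and 7.07 in knockout fat there, against 7.55, 7.31 and 7.37 in control fat. At CT12 its replicate 1 did lean, with 8.67, 8.36 and 8.43 against 8.69, 9.19 and 8.98.

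At CT18, 12 genes differed from CT6, which is 0.0602% of the genes tested. Of these, 3 rose (0.015%) and 9 fell (0.0451%), and 5 of the 12 are clock genes. The genes that fell were Nr1d1, Pfkfb3, Nr1d2, Rasd1, Dbp, Slc6a6, Cxcl10, Kit and Zfp622, and those that rose were Nfil3, Cry1 and H2bc1. For each of the 12, all 3 arrays at CT18 lay beyond all 3 at CT6, as they did for 15.2% of all genes. Across the whole table the absolute difference reached 1 on the log2 scale, for 13 genes (0.0652%), of which 5 passed and 8 did not.

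**Figure D1:**
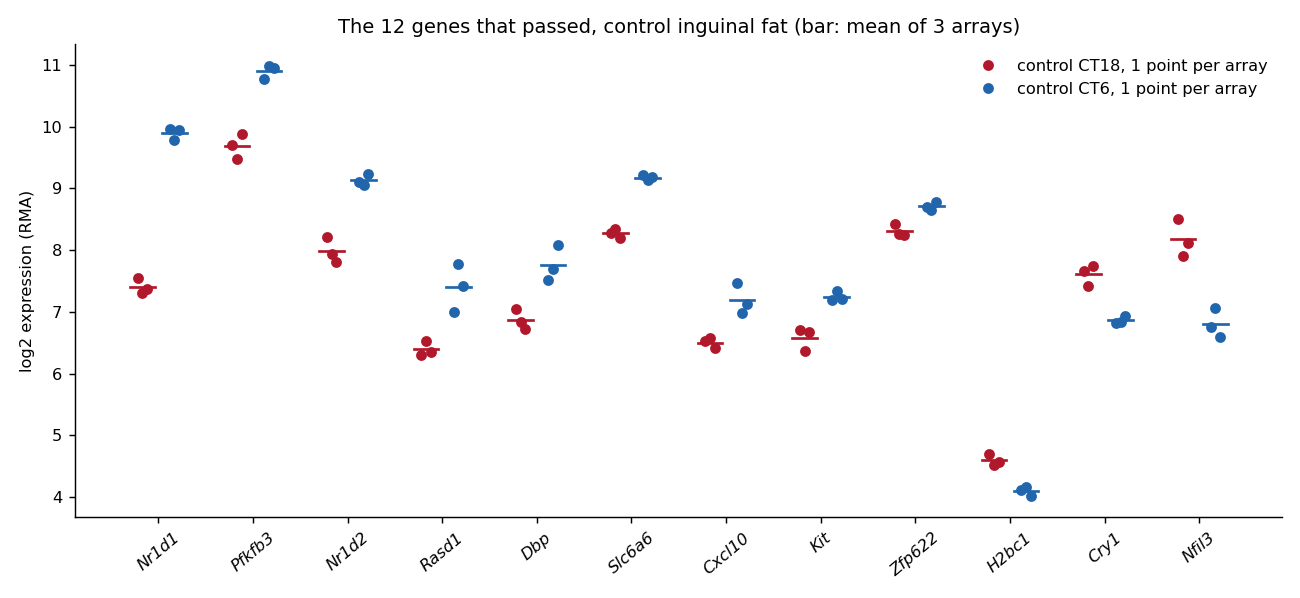
Log2 expression (RMA; vertical axis) of the 12 genes that passed, with 1 point per array and a bar at the mean of 3 arrays, control CT18 left of control CT6. The 9 genes that fell stand first, from Nr1d1 to Zfp622, and for none of the 12 do the groups overlap; levels of different genes are not comparable.

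Without control replicate 3 at CT18, 4 genes passed, all among the 12: Nr1d1, Slc6a6, Pfkfb3 and Kit. With each of the 6 arrays left out in turn, 3 of the 12, Nr1d1, Slc6a6 and Pfkfb3, passed in all 6 fits, and the number of genes that passed lay between 4 and 15. Leaving out 1 CT6 array gave 7 genes without replicate 1, 5 without replicate 2 and 6 without replicate 3. At an unadjusted p under 0.05, 1006 genes were higher and 537 lower at CT18 (5.05% and 2.69% of the genes tested, 7.74% together), so that 65.2% of them were higher. That lean came with dim probe sets. Among genes with a mean under 6, 519 were higher and 62 lower, and among those with a mean of at least 6, 487 were higher and 475 lower. After quantile normalization of the deposited values the split over all genes was 766 higher and 723 lower (51.4% higher).

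**Figure D2:**
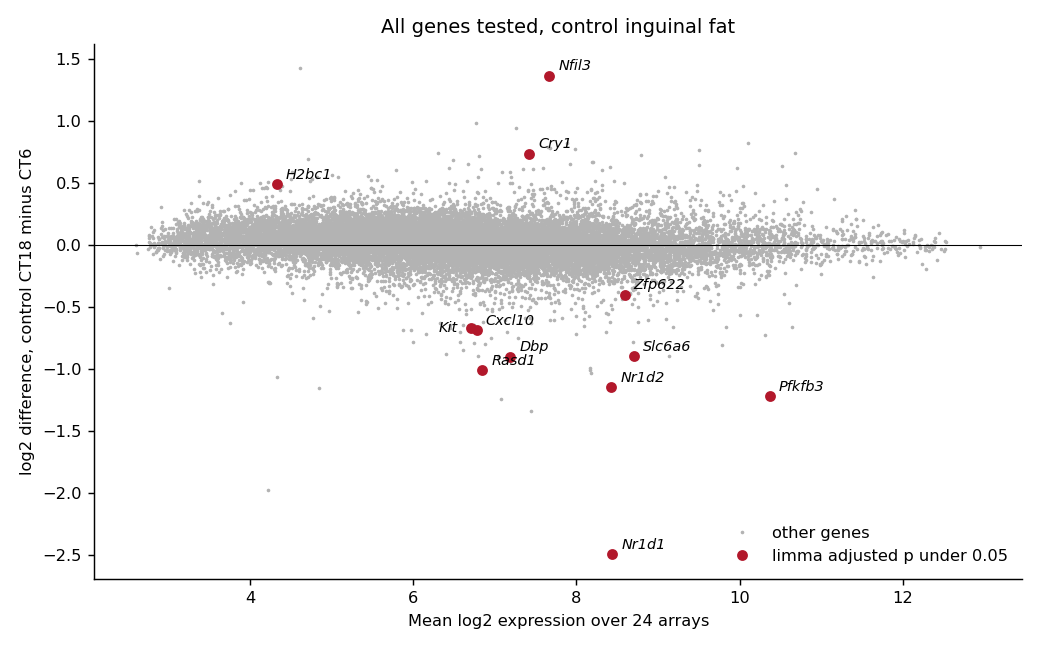
Log2 difference, control CT18 minus CT6 (vertical axis), against the mean log2 expression over 24 arrays (horizontal axis) for 19938 genes, 1 point per gene. The 12 named genes passed; Nr1d1, at -2.50, lies lowest, and H2bc1 is the named gene with the lowest mean.

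In whole tissue, fewer cells of a type and less RNA per cell cannot be told apart. Of the 13 lists of cell type markers, mesothelium, the lining that covers visceral surfaces, stood furthest from 0. All 8 of its markers were negative, where 59.7% of differences over all genes were positive. Their median was -0.43 against 0.029 for all genes. The summed level of the 8 (log2 of the sum of linear values) lay between 11.06 and 11.55 on the CT18 arrays and between 11.61 and 11.71 on the CT6 arrays. Over all 24 arrays the means of the 8 lay between 7.08 and 9.67, against a median gene mean of 6.5. The source of these markers in fat labelled inguinal was not tested. None of the 8 passed, and 4 were lower at an unadjusted p under 0.05. Upk1b, a uroplakin, had 8.62, 9.18 and 8.57 at CT18 against 9.46, 9.40 and 9.30 at CT6 (-0.60 ± 0.21, adjusted p = 0.512). Lrrn4, a leucine-rich repeat membrane protein, had 6.89, 6.92 and 6.70 against 7.44, 7.42 and 7.15 (-0.50 ± 0.16, adjusted p = 0.45). Gpm6a differed by -0.52 ± 0.22 and Krt19 by -0.47 ± 0.21. Krt19 is also on the list of mammary and skin epithelium markers, which had a median of 0.03. Replicate 2 was the highest of the CT18 arrays for Upk1b, Gpm6a and Krt19, and without replicate 3 the median was -0.29, the nearest to 0 with 1 array left out (the furthest was -0.57). The part of these markers in the differences below was not tested.

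Before the values of the clock genes, the stretch of 250 bases upstream of the annotated start is given for the REV-ERB genes, whose fall passed, and for Cry1 and Nfil3, the clock genes that rose (RefSeq, GRCm38.p6, all 4 on the minus strand, written 5′ to 3′ along the gene). Capitals mark the E-box CACGTG and its variant CACGTT, which reads AACGTG on the other strand. They also mark AGGTCA, the core to which REV-ERB and ROR receptors bind, which reads TGACCT on the other strand. The regions are chr11:98775378-98775627 for Nr1d1, chr14:18239107-18239356 for Nr1d2, chr10:85185055-85185304 for Cry1 and chr13:52981040-52981289 for Nfil3.
Nr1d1: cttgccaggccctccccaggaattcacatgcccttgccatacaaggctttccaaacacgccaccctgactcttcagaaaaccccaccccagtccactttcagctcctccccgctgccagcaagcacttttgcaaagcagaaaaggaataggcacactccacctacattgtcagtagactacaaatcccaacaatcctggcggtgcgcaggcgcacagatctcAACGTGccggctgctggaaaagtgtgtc
Nr1d2: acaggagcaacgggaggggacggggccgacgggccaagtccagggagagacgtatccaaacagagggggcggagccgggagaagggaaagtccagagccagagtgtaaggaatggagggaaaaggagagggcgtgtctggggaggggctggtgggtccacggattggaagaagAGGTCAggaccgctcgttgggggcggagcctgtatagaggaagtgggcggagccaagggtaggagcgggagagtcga
Cry1: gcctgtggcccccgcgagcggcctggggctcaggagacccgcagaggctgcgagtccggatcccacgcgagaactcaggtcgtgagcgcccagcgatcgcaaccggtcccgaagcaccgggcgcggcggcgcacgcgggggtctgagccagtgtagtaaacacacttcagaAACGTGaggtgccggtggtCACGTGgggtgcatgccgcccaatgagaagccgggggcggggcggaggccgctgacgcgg
Nfil3: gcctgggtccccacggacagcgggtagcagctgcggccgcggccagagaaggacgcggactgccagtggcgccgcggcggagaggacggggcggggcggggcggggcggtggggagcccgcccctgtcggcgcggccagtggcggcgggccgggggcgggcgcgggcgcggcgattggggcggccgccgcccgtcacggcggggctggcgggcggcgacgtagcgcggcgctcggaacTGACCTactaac
In windows from 250 bases before to 50 after the start, searched on both strands, 10 of the 12 genes that passed had a sequence. CACGTG stood in 2 of them, Cry1 at position -60 and Pfkfb3 at -53, and in 7.15% of all 32851 windows. CACGTG or CACGTT stood in 3, the same genes and Nr1d1 (CACGTT, at -28), and in 11.4% of all windows; Cry1 also holds CACGTT at -79. AGGTCA stood in 3, Nr1d2 at -77, Nfil3 at -12 and Zfp622 at -179, and in 16.3% of all windows. A D-box, TTATGTAA or TTACGTAA, stood in 0 of the 10 and in 1.06% of all windows. Of the 17 clock genes, 15 had a sequence: 5 held CACGTG, 5 AGGTCA and 1, Per3, a D-box. A gene counted where any of its windows held the motif, while the percentages are shares of single windows, so their units differ. All are matches of letters in 1 window per start, and no binding was measured.

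The genes of both REV-ERB receptors, haem-binding repressors, fell, and the fall of Nr1d1 was the largest among the genes that passed. Nr1d1 had 7.55, 7.31 and 7.37 at CT18 against 9.96, 9.79 and 9.95 at CT6, a fall of 2.50 on the log2 scale (SE 0.16, 5.64-fold, adjusted p = 7.67e-09). The distance between the groups was many times the spread within either. Nr1d2 had 8.22, 7.93 and 7.80 at CT18 against 9.10, 9.06 and 9.24 at CT6, a fall of 1.15 (SE 0.17, 2.21-fold, adjusted p = 0.00412). Without CT18 replicate 3 the adjusted p of Nr1d2 was 0.0586.

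Among the repressors that rose, Nfil3 is the basic leucine zipper protein that occupies D-boxes against DBP. It had 8.51, 7.90 and 8.12 at CT18 against 6.75, 7.07 and 6.60 at CT6, a rise of 1.37 ± 0.26 (2.58-fold, adjusted p = 0.0471). Cry1, whose protein blocks CLOCK and BMAL1, had 7.66, 7.42 and 7.75 at CT18 against 6.82, 6.84 and 6.94 at CT6. Its rise was 0.74 ± 0.13 (1.67-fold, adjusted p = 0.023). The groups of both genes lay apart, but without CT18 replicate 3 neither passed (adjusted p = 0.213 for Nfil3 and 0.217 for Cry1), and each passed in 1 of the 6 fits that left out an array.

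Dbp, a D-box activator, had 7.04, 6.84 and 6.72 at CT18 against 7.52, 7.69 and 8.09 at CT6, a fall of 0.90 on the log2 scale (SE 0.16, 1.87-fold, adjusted p = 0.0272). It passed in 2 of the 6 fits with an array left out. Its relatives were nearer to 0 and did not pass: Tef differed by -0.28 ± 0.10 (adjusted p = 0.562) and Hlf by -0.30 ± 0.15 (adjusted p = 0.657).

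Of the 17 clock genes, 2 rose, 3 fell and 12 did not pass (29.4% passed), with a median of -0.16 and 10 members negative. With 1 of the 6 arrays left out that median ran from -0.36 to -0.05. Arntl had 7.04, 7.38 and 7.55 at CT18 against 6.82, 6.82 and 6.54 at CT6, with no overlap (0.59 ± 0.16, adjusted p = 0.289), while its partner Clock differed by 0.14 ± 0.14. Bhlhe41, a repressor that competes for E-boxes, had 6.24, 7.07 and 6.37 against 7.67, 7.81 and 8.22. That difference, -1.34 ± 0.35, exceeded those of Nr1d2 and Dbp, but its spread was wider and the adjusted p was 0.289. Its paralogue Bhlhe40 differed by -0.43 ± 0.12 (adjusted p = 0.361). The Period genes went different ways, none of them past the threshold: Per1 differed by -0.16 ± 0.14, Per2 by 0.27 ± 0.10 and Per3 by -0.41 ± 0.16. Cry2, unlike Cry1, differed by 0.07 ± 0.11, Rora, the activator that shares sites with the REV-ERBs, by 0.13 ± 0.13, and Ciart, a repressor of CLOCK and BMAL1, by -0.12 ± 0.23.

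The pair CT12 and CT0, measured on 6 other control arrays, is also 12 h apart, and the clock genes split between the pairs. For CT12 minus CT0, 8 genes passed (0.0401%), and 17 without the 4 arrays that lay toward the other genotype for Ces1d. Control replicate 1 at CT12, 1 of the 4, stood apart from the other CT12 arrays for Nr1d2 (8.72 against 9.47 and 9.39) and for Nfil3 (7.62 against 6.44 and 6.67). Nr1d2 and Dbp were the only genes among the 12 above to pass there as well, with 1.17 ± 0.17 and 1.21 ± 0.16, positive where CT18 minus CT6 was negative. Arntl, at -1.63 ± 0.16 (adjusted p = 1.91e-05), Per3, at 1.33 ± 0.16, Hlf, at 0.99 ± 0.15, and Tef, at 0.59 ± 0.10, passed for CT12 minus CT0 and not for CT18 minus CT6. Nr1d1 differed by 0.50 ± 0.16 between CT12 and CT0 (adjusted p = 0.715) and Cry1 by -0.03 ± 0.13. Whether the differences of a gene in the 2 pairs differ was not tested.

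**Figure D3:**
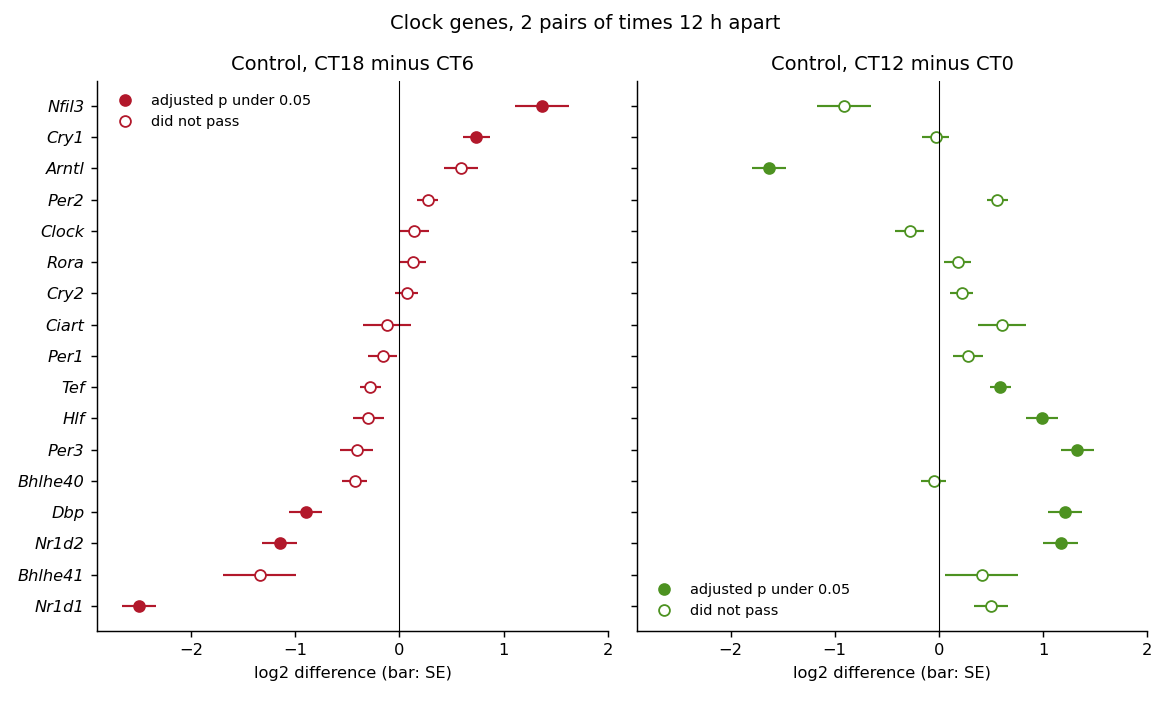
Log2 difference of the 17 clock genes (points; bars: SE), control CT18 minus CT6 on the left and control CT12 minus CT0 on the right, ordered by the left panel; filled points passed. Nr1d1, Nfil3 and Cry1 are filled on the left alone, Arntl, Per3, Hlf and Tef on the right alone, and Nr1d2 and Dbp in both, with opposite signs.

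Outside the clock list 7 genes passed, 6 lower and 1 higher. Pfkfb3, the enzyme that sets the level of the main allosteric activator of phosphofructokinase and so of glycolysis, had 9.70, 9.47 and 9.88 at CT18 against 10.77, 10.99 and 10.95 at CT6. Its fall was 1.22 on the log2 scale (SE 0.18, 2.32-fold, adjusted p = 0.00412). Slc6a6, the taurine transporter, had 8.28, 8.35 and 8.20 against 9.21, 9.13 and 9.18. This fall of 0.90 (SE 0.11, 1.86-fold, adjusted p = 0.00101) had the second smallest adjusted p after Nr1d1, and the arrays within each group differed little.

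Rasd1, a Ras-related GTPase first known as induced by dexamethasone, had 6.30, 6.53 and 6.35 at CT18 against 7.00, 7.77 and 7.42 at CT6, a fall of 1.01 (SE 0.17, 2.01-fold, adjusted p = 0.0171). Its CT6 arrays spread widely, and it passed in 2 of the 6 fits with an array left out. The list of glucocorticoid responsive genes, which does not hold Rasd1, gave no call: of 17 measured, 9 were positive, and Tsc22d3, with 8.80, 8.33 and 8.49 against 8.23, 7.81 and 8.02, differed by 0.52 ± 0.16 (adjusted p = 0.419). Zfp622, a zinc finger protein, fell by 0.40 on the log2 scale (SE 0.07, 1.32-fold, adjusted p = 0.023), with 8.43, 8.26 and 8.24 against 8.70, 8.65 and 8.78. It was the smallest of the 12 differences and passed in 1 of the 6 fits.

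Kit, the receptor tyrosine kinase for stem cell factor, had 6.70, 6.36 and 6.67 at CT18 against 7.19, 7.34 and 7.21 at CT6, a fall of 0.67 on the log2 scale (SE 0.10, 1.59-fold, adjusted p = 0.00412). It passed in 5 of the 6 fits. Kit is also a marker of mast cells. The other 6 mast cell markers lay between -0.23 and 0.13, with 3 of them positive and none past the threshold; the mast cell proteases Cpa3 and Mcpt4 differed by 0.01 ± 0.17 and -0.14 ± 0.22. Over the whole neutrophil and mast cell list the summed level lay between 9.61 and 9.81 at CT18 and between 9.71 and 9.90 at CT6.

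Cxcl10, a chemokine induced by interferon that draws activated T cells, had 6.52, 6.57 and 6.41 at CT18 against 7.46, 6.98 and 7.12 at CT6, a fall of 0.68 on the log2 scale (SE 0.12, 1.61-fold, adjusted p = 0.0196). It passed in 2 of the 6 fits. The other 19 interferon induced genes lay between -0.25 and 0.25, with 9 positive and none past the threshold. T cell and NK cell markers had a median of 0.12 and macrophage markers one of 0.13, also with none past the threshold. Neither median kept its sign with 1 of the 6 arrays left out: the first ran from -0.14 to 0.24 and the other from -0.04 to 0.26.

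H2bc1, which encodes a histone H2B variant of the testis, was the gene outside the clock list that rose. It had 4.69, 4.52 and 4.57 at CT18 against 4.11, 4.17 and 4.02 at CT6, a rise of 0.49 ± 0.09 (1.41-fold, adjusted p = 0.023). Its mean lay under 6, among the probe sets of which 519 were higher and 62 lower at an unadjusted p under 0.05, and after quantile normalization it did not pass (0.43 ± 0.09, adjusted p = 0.0752). Of the fits with an array left out, it passed only in the one without CT18 replicate 2. With the 6 arrays alone it did not pass either (adjusted p = 0.151). As 3 genes rose, the next 2 by p are given as not passing. Napepld, a phospholipase that makes N-acylethanolamines such as anandamide, differed by 0.68 ± 0.13 (adjusted p = 0.0793). Dpy19l2, known from sperm head formation, differed by 0.54 ± 0.11 (adjusted p = 0.0929).

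Over the 4 times in control fat, 6 of the 12 genes had their highest mean at CT6, 3 at CT12 and 3 at CT18, and 8 had their lowest mean at CT18. The choice by CT18 minus CT6 favours these ends. Nr1d1 averaged 8.45 ± 0.21, 9.90 ± 0.10, 8.95 ± 0.25 and 7.41 ± 0.13 at CT0, CT6, CT12 and CT18 (SD, n = 3 each), its highest mean standing 0.95 above the next. Kit averaged 6.59 ± 0.05, 7.25 ± 0.08, 6.69 ± 0.14 and 6.58 ± 0.19, so that CT6 stood 0.55 above the next mean and the other times lay within each other's spread. Slc6a6 averaged 8.58 ± 0.18, 9.17 ± 0.04, 8.82 ± 0.25 and 8.28 ± 0.07. Dbp, by contrast, averaged 6.62 ± 0.06, 7.77 ± 0.29, 7.82 ± 0.22 and 6.87 ± 0.16, with CT6 and CT12 within their spread of each other. Nr1d2 had the same plateau, with 8.02 ± 0.11, 9.13 ± 0.09, 9.19 ± 0.41 and 7.98 ± 0.21. The rises had their low end at CT6: Cry1 averaged 7.36 ± 0.20, 6.87 ± 0.06, 7.33 ± 0.21 and 7.61 ± 0.17, and Nfil3 7.82 ± 0.41, 6.81 ± 0.24, 6.91 ± 0.62 and 8.18 ± 0.31.

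**Figure D4:**
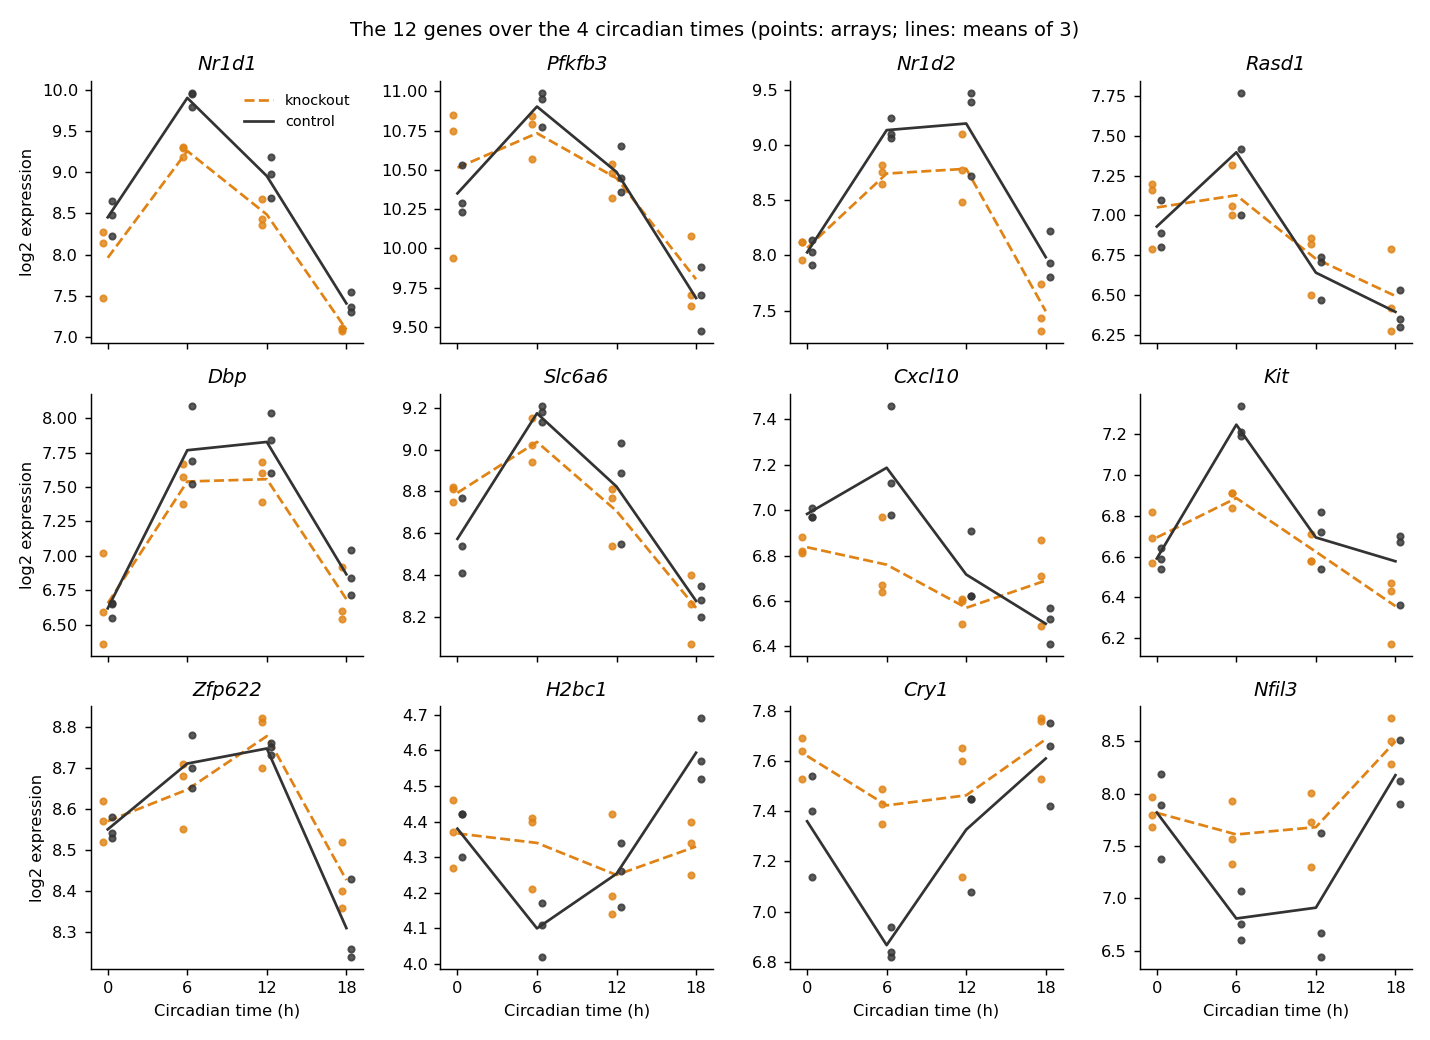
Log2 expression (vertical axes, scaled to each gene) against circadian time in hours for the 12 genes, in knockout (dashed) and control (solid) fat, with points for arrays and lines through the means of 3. In control fat Nr1d1, Pfkfb3, Rasd1, Slc6a6, Cxcl10 and Kit are highest at CT6 and Cry1, Nfil3 and H2bc1 at CT18; in knockout fat the lines of Cxcl10 and H2bc1 differ little between CT6 and CT18.

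In knockout fat, measured on 6 further arrays, 4 genes passed for CT18 minus CT6 (0.0201%), all lower at CT18, and 3 of them are among the 12. There Nr1d1 fell by 2.16 on the log2 scale (SE 0.16), with means of 7.09 ± 0.02 at CT18 and 9.26 ± 0.06 at CT6. Nr1d2 fell by 1.25 (SE 0.17) and Slc6a6 by 0.79 (SE 0.11). The sign was the same as in control fat for 11 of the 12 genes, and the absolute difference smaller for 11, in genes that had been chosen for their difference in control fat. The knockout difference minus the control one, tested in the same limma fit, passed for 0 genes, with 619 (3.1%) at an unadjusted p under 0.05. The 5 named genes with the smallest p were Kir3dl2, a member of the killer cell immunoglobulin-like receptor family (0.60 ± 0.11, adjusted p = 0.507), Taf5l, a subunit of a histone acetyltransferase complex (-0.52 ± 0.12), Zfp28, a zinc finger protein (-0.56 ± 0.14), H2bc1 (-0.50 ± 0.12) and Cxcl10 (0.61 ± 0.16), the adjusted p being 1 for the last 4. Cxcl10 averaged 6.69 ± 0.19 at CT18 and 6.76 ± 0.18 at CT6 in knockout fat, against 6.50 ± 0.08 and 7.19 ± 0.25 in control fat. Cry1 averaged 7.69 ± 0.13 at CT18 and 7.42 ± 0.07 at CT6 in knockout fat, against 7.61 ± 0.17 and 6.87 ± 0.06 in control fat, and its genotype difference was -0.48 ± 0.18 (unadjusted p = 0.0169, adjusted p = 1).

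Of the 35 gene lists, 22 of pathways and 13 of cell type markers, 31 held no gene that passed. Over all genes 59.7% of differences were positive, which is the background for the counts of signs above and below. Glucose uptake and glycolysis held 1 of 22, Pfkfb3, and had a median of 0.04. Slc2a4, the insulin-responsive glucose transporter, had 7.85, 7.59 and 8.06 at CT18 against 7.62, 7.37 and 7.47 at CT6 (0.35 ± 0.15, adjusted p = 0.588). Pck1, which feeds glycerol synthesis in fasted fat, differed by -0.39 ± 0.16 and Pdk1, an inhibitor of pyruvate dehydrogenase, by -0.28 ± 0.12.

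Insulin and IGF signalling had 15 of 20 members negative, a median of -0.12, and 0 that passed. Pik3cb, a catalytic subunit of PI3-kinase, had 8.11, 8.17 and 8.35 at CT18 against 8.76, 9.08 and 9.15 at CT6 (-0.78 ± 0.19, adjusted p = 0.207). Akt2, the main AKT isoform of insulin action in fat, had 9.75, 9.69 and 9.89 against 10.25, 10.38 and 10.39 (-0.56 ± 0.15, adjusted p = 0.328). Both were lower on all 3 CT18 arrays, as were 6 of the 20 members, against 5.37% of all genes. The summed level of the list lay between 13.02 and 13.05 at CT18 and between 13.13 and 13.23 at CT6.

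Adipogenic and lipid transcription factors had 15 of 22 members negative, a median of -0.05 (-0.09 to 0.02 with 1 array left out), and 0 that passed. Pparg, the master regulator of fat cells, had 10.14, 9.68 and 10.04 at CT18 against 10.53, 10.52 and 10.50 at CT6 (-0.56 ± 0.14, adjusted p = 0.211), and the groups did not overlap. Cebpa, its partner, differed by -0.27 ± 0.11 and the coactivators Ppargc1a and Ppargc1b by -0.75 ± 0.25 and -0.30 ± 0.11. Thermogenic genes had 9 of 13 members negative, a median of -0.11 (-0.23 without CT18 replicate 3, and -0.25 to -0.03 with 1 array left out), and 0 that passed. Among them Ucp3, an uncoupling protein, had 7.13, 6.48 and 7.04 against 7.75, 7.52 and 7.62 (-0.75 ± 0.20, adjusted p = 0.297). Cox8b, a cytochrome oxidase subunit of brown fat and muscle, had 7.72, 7.63 and 7.84 against 8.70, 9.54 and 8.02 (-1.03 ± 0.35, adjusted p = 0.495), the CT6 arrays spreading more than the CT18 ones. Skeletal muscle markers had a median of 0.07, with 11 of 13 members positive and 0 past the threshold. Their summed level was at most 10.44 on the CT18 arrays and between 10.31 and 10.54 on the CT6 arrays, with the lowest array at CT18. The member with the highest mean, 8.94, differed by -0.48 ± 0.32. A share of muscle in the differences of Ucp3 and Cox8b was not tested.

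The main lipid pathways and the respiratory chain lay close to the median of all genes, with 0 genes past the threshold in each. Lipogenesis had a median of -0.06 over 17 genes: Thrsp, a lipogenic nuclear protein, had 11.24, 10.87 and 11.19 at CT18 against 10.52, 10.60 and 10.29 at CT6 (0.64 ± 0.28, adjusted p = 0.607), while Acacb, an acetyl-CoA carboxylase, differed by -0.60 ± 0.24. Lipolysis and lipid droplet proteins had a median of -0.03 over 16 genes, with Pnpla2, the triglyceride lipase, at -0.11 ± 0.12. Triglyceride synthesis had a median of -0.03 over 11 genes, fatty acid uptake and binding one of -0.04 over 12 and fatty acid oxidation one of -0.07 over 23. Cholesterol synthesis had one of 0.05 over 19 and the respiratory chain one of 0.04 over 28. With 1 array left out the medians of these lists stayed between -0.11 and 0.08, and some changed sign.

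Heat shock and cold inducible genes had 9 of 12 members positive, a median of 0.08, and 0 that passed; 5 of the 12 were higher on all 3 CT18 arrays, against 9.85% of all genes. Hsph1, a co-chaperone, had 8.17, 8.02 and 8.01 at CT18 against 7.46, 7.27 and 7.50 at CT6 (0.66 ± 0.16, adjusted p = 0.197). The chaperone Hsp90aa1 differed by 0.21 ± 0.08 and Dnaja1 by 0.21 ± 0.09. Both cold inducible members that were measured were negative, at -0.285 and -0.103. In the endoplasmic reticulum list Hyou1, a chaperone, had 7.02, 7.24 and 7.15 against 6.84, 6.76 and 6.72 (0.36 ± 0.08, adjusted p = 0.104), and the list's median was -0.03 (-0.08 to 0.03 with 1 array left out). Of the detoxification genes, Fmo2, a flavin monooxygenase, had 10.90, 10.60 and 10.18 against 9.92, 9.22 and 10.06 (0.82 ± 0.22, adjusted p = 0.297).

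**Figure D5:**
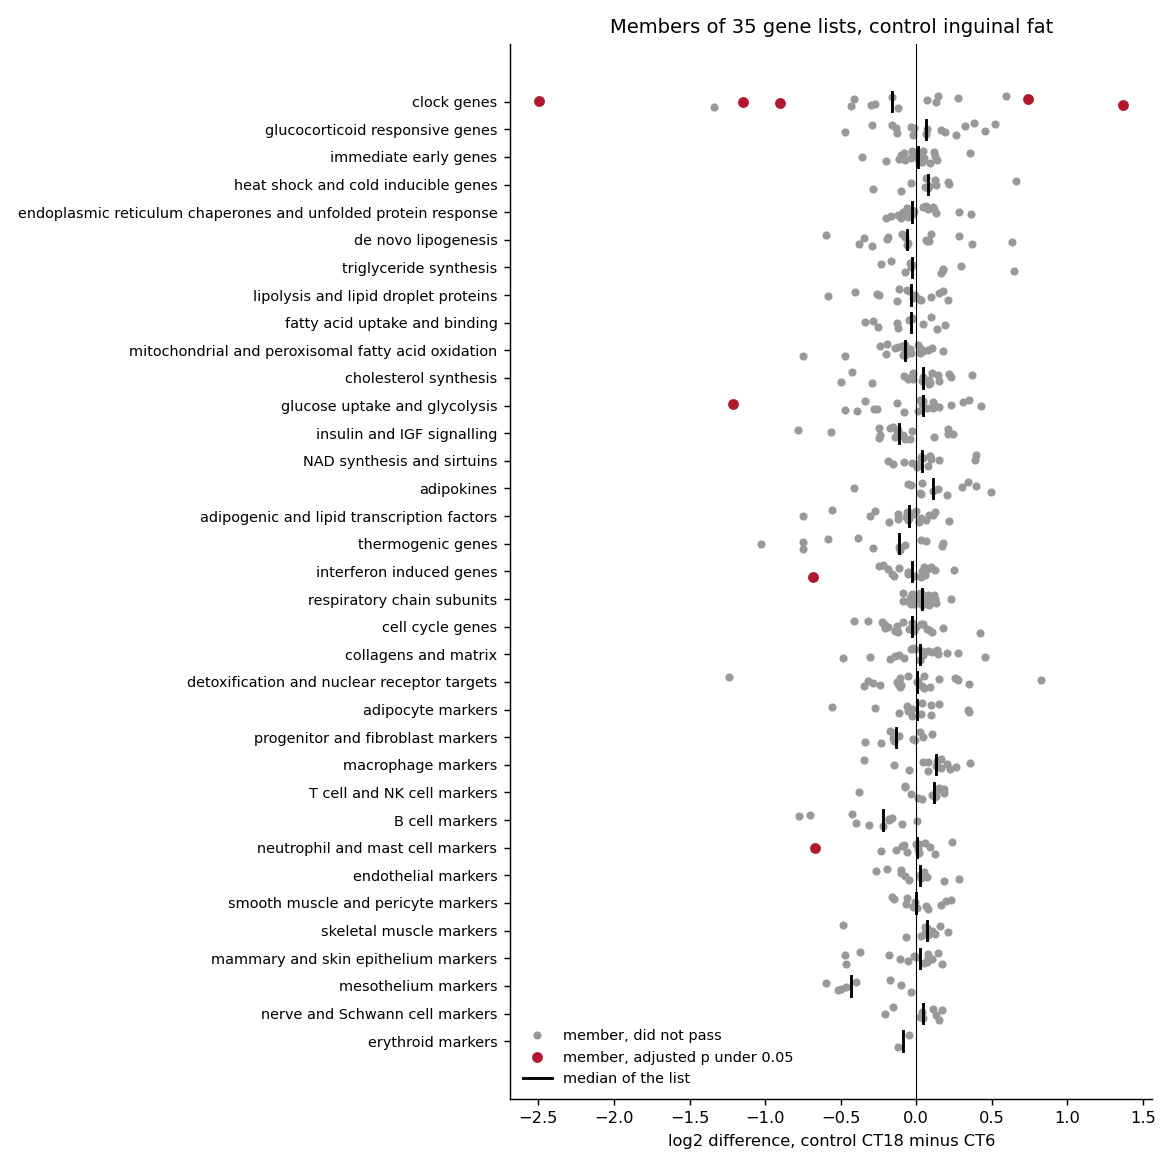
Log2 difference, control CT18 minus CT6 (horizontal axis), of the measured members of 35 gene lists (rows), with 1 point per gene and a bar at the median; red points passed. Red points stand in 4 lists, and the mesothelium markers, with a median of -0.43, all lie left of 0.

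Markers of the other cell types gave 1 call, Kit. B cell markers had 10 of 11 members negative, a median of -0.22 (-0.10 without CT18 replicate 3, and -0.44 to -0.10 with 1 array left out) and 0 past the threshold. Their summed level ran from 9.23 to 10.37 at CT18 and from 9.79 to 10.15 at CT6, the CT18 arrays spanning the wider range. Ms4a1 (CD20) had 5.64, 7.81 and 5.63 at CT18 against 6.63, 7.26 and 7.52 at CT6, so that CT18 replicate 2 was the highest and the other CT18 arrays the lowest of the 6. Progenitor and fibroblast markers had a median of -0.13 (-0.08 without CT18 replicate 3), with summed levels between 13.31 and 13.56 at CT18 and between 13.54 and 13.60 at CT6. Endothelial markers had a median of 0.02 (-0.06 to 0.03 with 1 array left out), and the adipocyte markers one of 0.00 (-0.03 to 0.09).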

How the data were processed

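Total RNA of inguinal adipose tissue came from a Trizol extraction, of which 50 ng was amplified and biotin-labelled for Affymetrix arrays, per the labels' protocols. The deposited values are log2 expression made by the authors with RMA, per the submitters' processing notes; the sources used here give no version and no array dates. They were used as deposited.

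Of 35556 probe sets, 21789 had 1 symbol, 1621 several and 12146 none; 21698 matched a RefSeq table (GRCm38.p6, for names), and 0 symbols changed. The brightest probe set stood for each of the 999 genes with several, leaving 19938 genes, with no filter. limma 3.58.1 (R 4.3.3) fitted 8 group means over 24 arrays, with Benjamini-Hochberg adjustment over all genes and a threshold of 0.05 (16 residual and 5.03 prior degrees of freedom). Lists were described by counts and medians, untested. The number of arrays limits the precision. On simulated data for CT18 minus CT6 over 19938 genes, 67, 67 and 66 genes were changed by 0.5, 1 and 2 (log2), the others being flat. Of these, 56.7%, 98.5% and 100% were recovered, with 10 false calls. The simulated noise was normal and independent between genes and arrays, with each gene's residual spread. The adjusted p also depends on how many genes change, so these shares need not hold for the measured arrays. There 12 genes passed, among them 5 of the 13 with an absolute log2 difference of at least 1. Replicates are biological per the labels.

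Named were the clock genes, up to 15 genes per direction that passed without overlap (where fewer than 5 passed, the 5 with the smallest p), per list described the members that passed and up to 4 with the smallest p, and the 5 with the smallest p for the genotype difference. Adipoq, Pnpla2, Cpa3, Mcpt4, Ms4a1 and Ces1d were named outside this rule, after their values were seen, and predicted, clone-named, olfactory and small RNA genes were not named. The comparison, its members and the lists were chosen with earlier results of these data known. Alternatives changed the arrays fitted, the normalization, the filter, the probe set summary, the variance model, the array weights, the replicate block and the motif.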

Additional observations from a re-analysis of the deposited data

How the results depend on the processing

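The number of genes that passed for CT18 minus CT6, 12 (3 higher, 9 lower), was 5 (1 higher, 4 lower) with the 6 arrays alone, 5 (0 higher, 5 lower) over all probe sets and 49 (18 higher, 31 lower) with array weights, which kept all 12. With the 12 control arrays alone 15 genes were lower (17 in all, 10 shared), and without replicate 1 at CT12 and replicate 3 at CT18 of both genotypes 6 were higher (15 in all, 7 shared). Quantile normalization gave 14 (11 shared), an intensity trend 14 (12 shared), the mean of probe sets 12 (12 shared) and genes with a mean of at least 6 gave 12 (11 shared). With 1 of the 6 arrays left out the count lay between 4 and 15, with 0 to 8 higher and 4 to 9 lower; the lowest came without CT18 replicate 3. The clock genes that passed numbered 5, but 3 with the 6 arrays alone, 2 over all probe sets and 1 to 4 with an array left out. For CT12 minus CT0 the count of 8 was 5 after quantile normalization, 5 over all probe sets, 73 with array weights and 17 without the 4 arrays. With 1 of the 6 control arrays at CT18 and CT6 left out it was 5 to 12. Those fits change only the shared spread for CT12 minus CT0, as no CT12 or CT0 array was left out singly. The genotype difference gave 0 under each alternative run. Same-numbered arrays at CT18 and CT6 deviated with correlations of 0.14, 0.13 and -0.07, so the numbers were not taken as pairs; with the replicate block 13 genes passed (11 shared), Nfil3 not among them (adjusted p = 0.0724). Signs turned for genes near 0, none of which had passed: with 1 array left out, Cry2 ran from -0.046 to 0.205, Ciart from -0.358 to 0.115, Klrb1c from -0.050 to 0.241, Acta2 from -0.403 to 0.051, Cnn1 from -0.065 to 0.520 and Alas2 from -0.184 to 0.097, and with array weights Ciart was 0.007. Counting CACGTT with CACGTG moved the genes with an E-box to 3, against 2. The causes of these shifts were not tested.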
